A study of Mus musculus with 14 samples.

Results

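The calcium/calmodulin-dependent protein kinases and their endogenous inhibitors were followed in mouse hippocampus and heart at 2 ages through every array probe set annotated to only 1 of 9 genes: the CaMKII subunit genes Camk2a, Camk2b, Camk2d and Camk2g, the inhibitor genes Camk2n1 and Camk2n2, the CaM kinase kinase genes Camkk1 and Camkk2, and Camk4. A probe set is a group of short oligonucleotides on an Affymetrix mouse expression array whose signals are summarised to 1 value. Of the 45037 probe sets tested, 28 named 1 of these genes and no other, and no probe set named one of them together with another gene. They covered 8 of the 9 genes, with 7 probe sets for Camk2d, 6 for Camk2a, 5 for Camk4, 4 for Camkk2, 2 each for Camk2g and Camk2n1, and 1 each for Camk2b and Camk2n2. Camkk1 was not analysed here, since 0 probe sets carried its name in the annotation used.

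All samples came from untreated C57BL/6 mice and fall into 4 groups: hippocampus of adults, hippocampus of pups, heart of adults and heart of pups. The adults were males of 10 weeks whose RNA was bought from a supplier, in 2 biological replicates per tissue with 2 technical arrays each, and the technical arrays were averaged here. The pups were 7 days old, of a sex the labels do not give, in 3 biological replicates per tissue, and their mRNA was isolated in the laboratory. Age therefore cannot be told apart from the source and isolation of the RNA. The labels differ on the adults, since the titles pair the 4 arrays of a tissue as technical repeats of 2 samples, while another label field numbers the arrays of a tissue as separate biological replicates. Values are on the log2 scale, so that a difference of 1 is a doubling of signal, and each group of 2 or 3 samples leaves an age or tissue difference to rest on few animals.

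Calcium entering a cell binds calmodulin, and calcium-loaded calmodulin opens the active site of these kinases. CaMKII is a ring-shaped holoenzyme built from alpha, beta, delta and gamma subunits that phosphorylates neighbouring subunits and so stays active after calcium has fallen, a property known for its role at excitatory synapses of the hippocampus and in excitation-contraction coupling in the heart. The inhibitor proteins bind the active enzyme, and the CaM kinase kinases phosphorylate and activate CaMKI and CaMKIV, the second of which phosphorylates the transcription factor CREB in the nucleus.

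Promoter sequences are shown for Camk2n2 and Camkk2, of which 1 of 1 and 2 of 4 probe sets were higher in hippocampus than in heart at both ages, and for Camk2d, for which no probe set passed the test between the tissues. Each is the sense strand of the gene from 250 bases before to 50 bases after the start in RefSeq on GRCm38.p6, 5′ to 3′, with GC boxes (GGGCGG, on either strand, overlaps allowed) in capitals. RefSeq promoters were at hand for 5 of the 9 genes. The Camk2n2 promoter lies at chr16:20621229-20621528 on the minus strand, that of Camkk2 at chr5:122779361-122779660 on the minus strand and that of Camk2d at chr3:126596701-126597000 on the plus strand.
Camk2n2: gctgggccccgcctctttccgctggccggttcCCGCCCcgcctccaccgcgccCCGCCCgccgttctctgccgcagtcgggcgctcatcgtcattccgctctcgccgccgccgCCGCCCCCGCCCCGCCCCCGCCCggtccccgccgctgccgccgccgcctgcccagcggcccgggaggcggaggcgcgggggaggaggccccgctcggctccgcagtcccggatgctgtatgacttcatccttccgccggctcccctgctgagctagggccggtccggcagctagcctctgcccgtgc
Camkk2: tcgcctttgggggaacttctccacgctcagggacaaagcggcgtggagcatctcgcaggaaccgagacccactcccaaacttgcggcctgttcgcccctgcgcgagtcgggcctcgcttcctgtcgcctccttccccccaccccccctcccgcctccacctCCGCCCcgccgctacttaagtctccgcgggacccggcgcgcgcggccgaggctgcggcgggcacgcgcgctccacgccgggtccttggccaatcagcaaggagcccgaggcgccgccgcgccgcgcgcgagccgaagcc
Camk2d: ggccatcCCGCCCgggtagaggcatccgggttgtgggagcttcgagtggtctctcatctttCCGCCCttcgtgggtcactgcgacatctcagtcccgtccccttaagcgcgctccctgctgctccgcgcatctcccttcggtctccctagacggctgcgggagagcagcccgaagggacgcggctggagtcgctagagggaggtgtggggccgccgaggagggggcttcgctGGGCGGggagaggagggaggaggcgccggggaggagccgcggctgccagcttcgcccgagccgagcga
The Camk2n2 window held 6 GC boxes, of which the most distal began 218 bases before the start, the Camk2d window held 3 and the Camkk2 window held 1. Of all 32851 promoters in the table, 35.7% held at least 1 GC box and 1.35% held at least 6. The windows were 79% (Camk2n2), 73.3% (Camkk2) and 70.3% (Camk2d) G or C, beside a median of 52.7% over all promoters. The full CREB element TGACGTCA was in none of the 3 windows and in 1.79% of all promoters, and its first 5 letters, TGACG, which the full element contains, were in the Camk2n2 window 1 time and in 20.8% of all promoters, counting both strands. An E-box (CANNTG), found in 72.3% of all promoters, and TATAAA, found in 13.6%, were in none of the 3 windows. These are matches of letters in a fixed window.

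Arrays of 1 group correlated with each other at 0.931 to 0.968 over all probe sets, and array medians lay between 8.73 and 8.98. Of 7 cardiomyocyte markers, each read by its probe set with the highest mean, all 7 were lower in hippocampus than in heart of pups and 6 in adults. The mean level of these markers was 8.50 and 8.41 in adult hippocampus replicates 1 and 2 and 11.42, 10.00 and 9.01 in pup hippocampus replicates 1, 2 and 3, against 14.51 and 14.09 in adult heart and 15.42, 15.13 and 15.58 in pup heart. On this mean, pup hippocampus replicates 1 and 2 thus read above replicate 3 for heart transcripts, and all 3 read above the adult hippocampi. Of 8 markers of hippocampal neurons, 3 were higher in hippocampus than in heart of pups, and in adults 3 were higher and 1 lower. Over all probe sets, 7.52% were higher and 6.77% lower in hippocampus of pups, and 10.3% and 11.9% in hippocampus of adults. Over all 10 samples, the neuronal markers Rbfox3 and Nrgn read between 12.91 and 14.51 and between 15.27 and 15.74, with overlapping tissues. The 18 hybridization control probe sets, which read RNA added to every sample, averaged 10.80 in adult hippocampus, 13.15 in pup hippocampus, 10.73 in adult heart and 13.16 in pup heart. The part of these differences in the results below was not tested. Values without pup hippocampus replicates 1 and 2 are given in places, and they leave 1 sample in that group. They do not bear on the hybridization controls, which differed between adults and pups in both tissues. On the mean of the cardiomyocyte markers, replicate 3 itself read above the adult hippocampi. By single marker it read above both adult hippocampi for Myh6, Actc1, Tnni3 and Myl2, and below both for Tnnt2, Myl3 and Ryr2.

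In adults, 10 of the 28 probe sets were higher in hippocampus than in heart and 1 was lower, beside 10.3% of all probe sets higher and 11.9% lower (limma, adjusted p under 0.05 over all 45037 probe sets). In pups, 8 of the 28 were higher in hippocampus and 0 lower, beside 7.52% of all higher and 6.77% lower. The median member difference, hippocampus minus heart, was 0.39 in adults and 0.26 in pups, where the median over all probe sets was -0.06 and -0.10. With pup hippocampus replicate 3 alone standing for its group, a setting chosen after seeing the data, 6 of the 28 were higher in the pups. Both inhibitor genes, Camk2a, Camkk2 and Camk4 each had at least 1 probe set that was higher in hippocampus at both ages. The tissues are mixtures, so that fewer cells of a type and less RNA per cell cannot be told apart.

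**Figure D1:**
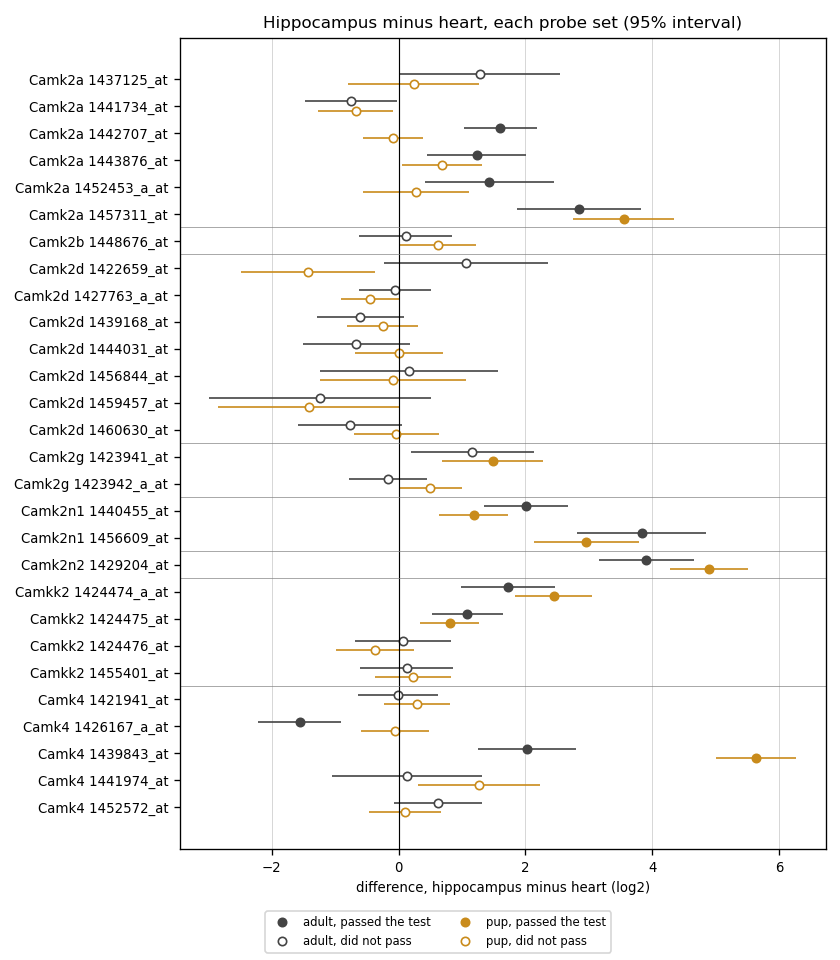
Difference between tissues (hippocampus minus heart, log2) for each of the 28 probe sets, in adults (grey) and in pups (ochre), with 95% confidence intervals from limma; filled points passed the test at an adjusted p of 0.05 and open points did not. The points farthest to the right are Camk4 1439843_at in pups at 5.64 and Camk2n2 1429204_at in pups at 4.89, and Camk4 1426167_a_at in adults at -1.56 is the only filled point left of 0.

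Adult and pup samples differed in a minority of the probe sets and in both directions. In hippocampus, 2 of the 28 were higher in adults than in pups and 4 lower, beside 8.38% of all probe sets higher and 6.52% lower. In heart, 3 were higher in adults and 4 lower, beside 11.7% and 8.32% of all probe sets. The age difference itself differed between the tissues for 2 probe sets, Camk2a 1442707_at, for which it was higher in hippocampus, and Camk4 1439843_at, for which it was lower, beside 1.18% of all probe sets higher and 2.37% lower. In hippocampus the count of calls was 1 without adult hippocampus replicate 1, 3 without adult hippocampus replicate 2 and 2 with pup hippocampus replicate 3 alone. In heart it was 2 without adult heart replicate 1, 3 without adult heart replicate 2 and 4 without pup heart replicate 1.

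Markers of some cell types also moved with age, each read by its probe set with the highest mean. Over all probe sets, 8.38% were higher and 6.52% lower in adult than in pup hippocampus, and 11.7% and 8.32% in adult than in pup heart. Of 4 fibroblast markers, 3 were lower in adults than in pups in each tissue, and their mean level was 10.01 and 9.57 in adult hippocampus, against 10.90 to 11.40 in pup hippocampus, and 10.21 and 10.23 in adult heart, against 13.28 to 13.84 in pup heart. Of 3 endothelial markers, 1 was lower in adults in hippocampus and 2 in heart, where their mean level was 10.54 and 10.55 in adults, against 12.06 to 12.64 in pups. Of the 7 cardiomyocyte markers, 2 were lower in adults in each tissue. Of the 8 markers of hippocampal neurons, 1 was higher and 2 lower in adult than in pup hippocampus, and 2 were higher and 0 lower in adult heart. Of 4 astrocyte markers, 1 was higher in adult hippocampus and 0 in adult heart. Of 3 interneuron markers and 3 of microglia and macrophages, 0 passed in either tissue. Over all 18 probe sets of the astrocyte markers, 1 was higher and 2 lower in adult hippocampus, and 0 were higher and 5 lower in adult heart. Over all 8 of the interneuron markers, 2 were higher in adult hippocampus and 1 in adult heart, and 0 lower. Of all 6 of microglia and macrophages, 0 passed. In adult heart, 1 of 2 red blood cell markers was higher and 1 of 3 markers of cardiac or sympathetic neurons lower.
Neurod6, a transcription factor of excitatory neurons, read 8.63 and 8.87 in adult hippocampus, against 11.32, 10.95 and 10.36 in pup hippocampus. On the same list of neuronal markers, Syn1, Zbtb20 and Nrgn also read lower in adult hippocampus without overlap. Snap25 read higher, at 11.12 and 11.23 against 9.72, 9.90 and 10.12. Slc17a7 also read higher, at 13.56 and 12.40 against 11.29, 11.89 and 11.45. For Rbfox3 and Prox1 the ages overlapped. Of 3 choroid plexus markers, 1 was lower and 0 higher in adult hippocampus, and 1 was higher in adult heart. The lower one, Ttr, the transthyretin of the choroid plexus, read 11.46 and 12.03 in adult hippocampus, against 15.90, 15.54 and 15.82 in pup hippocampus. Kl read 8.32 and 8.35 in adult hippocampus, against 7.36, 7.13 and 7.36 in pup hippocampus. Folr1 read 10.72 and 8.01, against 9.62, 8.30 and 8.37. Of 3 oligodendrocyte markers, each read by its probe set with the highest mean, 0 were higher and 0 lower in adult hippocampus. Over all 14 probe sets of these genes, 8 were higher and 0 lower, beside 8.38% and 6.52% of all probe sets. The pup hippocampi lay in the order of their cardiomyocyte markers, replicate 1 highest and replicate 3 lowest, for 6 of the 28 CaM kinase probe sets. These were Camk4 1439843_at and 1441974_at, Camk2n2 1429204_at, both Camk2g probe sets and Camk2d 1427763_a_at. How many of all probe sets lay in this order was not counted, so the 6 cannot be set against a background. Of the 6, only Camk2d 1427763_a_at had a higher mean in pup heart (8.81) than in pup hippocampus (8.36). The part of the cell type markers in the age differences was not tested.

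**Figure D2:**
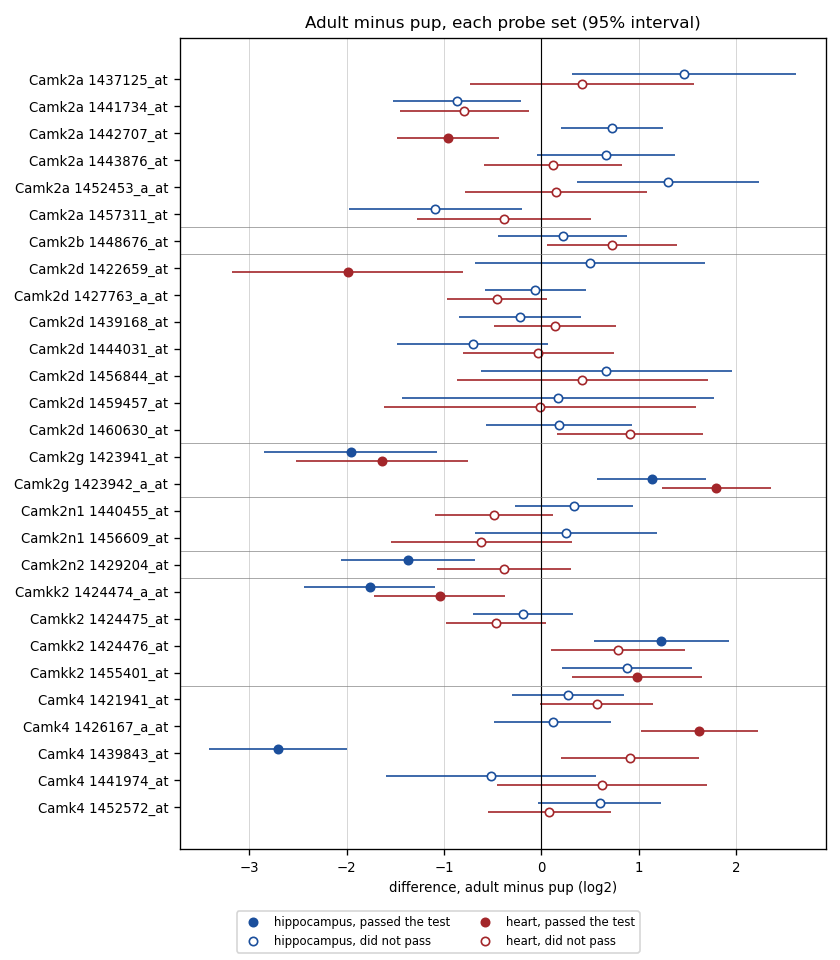
Difference between ages (adult minus pup, log2) for each of the 28 probe sets, in hippocampus (blue) and in heart (red), with 95% confidence intervals from limma; filled points passed the test at an adjusted p of 0.05 and open points did not. Camk4 1439843_at lies at -2.71 in hippocampus and 0.91 in heart, and the 2 Camk2g probe sets lie on opposite sides of 0 in both tissues.

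Camk2a encodes the alpha subunit, the main CaMKII subunit of forebrain excitatory neurons. Its probe set with the widest spread over the samples, 1457311_at, read 13.64 and 14.36 in adult hippocampus and 15.09, 14.96 and 15.23 in pup hippocampus, against 10.74 and 11.57 in adult heart and 10.85, 12.00 and 11.76 in pup heart. Every hippocampus lay above every heart. The difference between tissues was 2.85 ± 0.44 (SE) in adults, or 7.20-fold, and 3.55 ± 0.36 in pups, or 11.7-fold (limma adjusted p = 0.00203 and 0.000129). Between the ages the hippocampi did not overlap, and the adults read lower, but the difference of -1.09 ± 0.40 missed the threshold (adjusted p = 0.0955).

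The other Camk2a probe sets differed less between the tissues. For 1442707_at the values were 10.05 and 10.28 in adult hippocampus and 9.59, 9.19 and 9.54 in pup hippocampus, against 8.67 and 8.47 in adult heart and 9.48, 9.67 and 9.44 in pup heart. Adult hippocampus was the highest group and adult heart the lowest, and the pup groups overlapped. The tissue difference was 1.60 ± 0.26 in adults (adjusted p = 0.00254) and -0.09 ± 0.21 in pups (adjusted p = 0.841). With age the probe set fell in heart (difference -0.96 ± 0.23, adjusted p = 0.019), while in hippocampus the difference was 0.73 ± 0.23 (adjusted p = 0.0667). The difference between these age differences was 1.69 ± 0.33 (adjusted p = 0.0271).
The heart call was lost without adult heart replicate 1 (adjusted p = 0.0770), without adult heart replicate 2 (0.124) and when only the heart samples were fitted (0.0761). The difference between age differences was lost in 6 of the 10 settings that left out 1 sample: without either adult hippocampus (0.0902 and 0.112), pup hippocampus replicate 2 or 3 (0.0674 and 0.0551) or either adult heart (0.0890 and 0.112), and with pup hippocampus replicate 3 alone (0.135).

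A further 2 Camk2a probe sets passed the test between adult tissues. The probe set 1443876_at read 10.25 and 11.02 in adult hippocampus against 9.51 and 9.31 in adult heart (difference 1.23 ± 0.35, adjusted p = 0.0315). The probe set 1452453_a_at read 7.11 and 7.44 in adult hippocampus against 5.32 and 6.36 in adult heart (difference 1.43 ± 0.46, adjusted p = 0.0499). Neither pair of groups overlapped, and both calls depended on single samples. The call for 1443876_at was lost without adult hippocampus replicate 2 (difference 0.84, adjusted p = 0.213), adult heart replicate 1 (0.0969) or adult heart replicate 2 (0.145), and with pup hippocampus replicate 3 alone (0.0549). That for 1452453_a_at was lost in 7 of the 10 settings that left out 1 sample, with a difference of 0.91 without adult heart replicate 1 (adjusted p = 0.295) and adjusted p-values between 0.0576 and 0.212 without either adult hippocampus, any pup hippocampus or pup heart replicate 1. It was also lost with only the adult samples (0.0513) and with pup hippocampus replicate 3 alone (0.0838).
In pups the differences were 0.69 ± 0.28 and 0.28 ± 0.37 for the 2 probe sets, and neither passed the test.

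The remaining Camk2a probe sets passed no test. The probe set 1437125_at read 12.64 and 13.31 in adult hippocampus and 12.22, 10.91 and 11.40 in pup hippocampus, against 10.82 and 12.57 in adult heart and 11.20, 11.32 and 11.30 in pup heart. The 2 adult hearts lay 1.75 apart, and the difference between adult tissues was 1.28 (adjusted p = 0.136), or 2.16 without adult heart replicate 2 (adjusted p = 0.0347). Its adult minus pup difference in hippocampus was 1.47 ± 0.52 (adjusted p = 0.0854). It passed the test at the same difference with either adult heart left out, where the hearts entered only through the shared estimate of the spread. It also passed with the 4 adult arrays as replicates (0.0419), which counts arrays that the titles call technical as separate samples. The probe set 1441734_at ran the other way, at 13.89 and 13.14 in adult hippocampus and 14.08, 14.64 and 14.41 in pup hippocampus, against 14.26 and 14.27 in adult heart and 15.32, 14.97 and 14.88 in pup heart. It lay lower in hippocampus than in heart at both ages and lower in adults than in pups in both tissues, with no overlap in any of these 4 pairs and differences between -0.68 and -0.87 that missed the threshold. For 1452453_a_at in hippocampus, the adults exceeded the pups by 1.30 ± 0.42 without passing the test (adjusted p = 0.0649), and passed it without pup heart replicate 2 (0.0345). That heart sample entered only through the shared estimate of the spread. The 6 probe sets of this gene thus gave adult minus pup differences in hippocampus from -1.09 to 1.47, none of which was called.

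Camk2b, whose beta subunit binds actin filaments in neurons, was read by the single probe set 1448676_at. It read 9.16 and 8.91 in adult hippocampus and 8.86, 8.88 and 8.71 in pup hippocampus, against 9.37 and 8.48 in adult heart and 8.36, 7.91 and 8.32 in pup heart. The 10 samples spanned 1.46, and the technical arrays of adult heart replicate 1 were 1.26 apart. The adult tissues overlapped, while the groups did not overlap in the 3 other pairs. The tissue difference was 0.11 in adults (95% confidence interval -0.62 to 0.84) and 0.62 in pups (0.02 to 1.22), and the age difference was 0.22 in hippocampus (-0.45 to 0.89) and 0.73 in heart (0.06 to 1.40). None passed the test (adjusted p = 0.852, 0.163, 0.663 and 0.116).

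**Figure D3:**
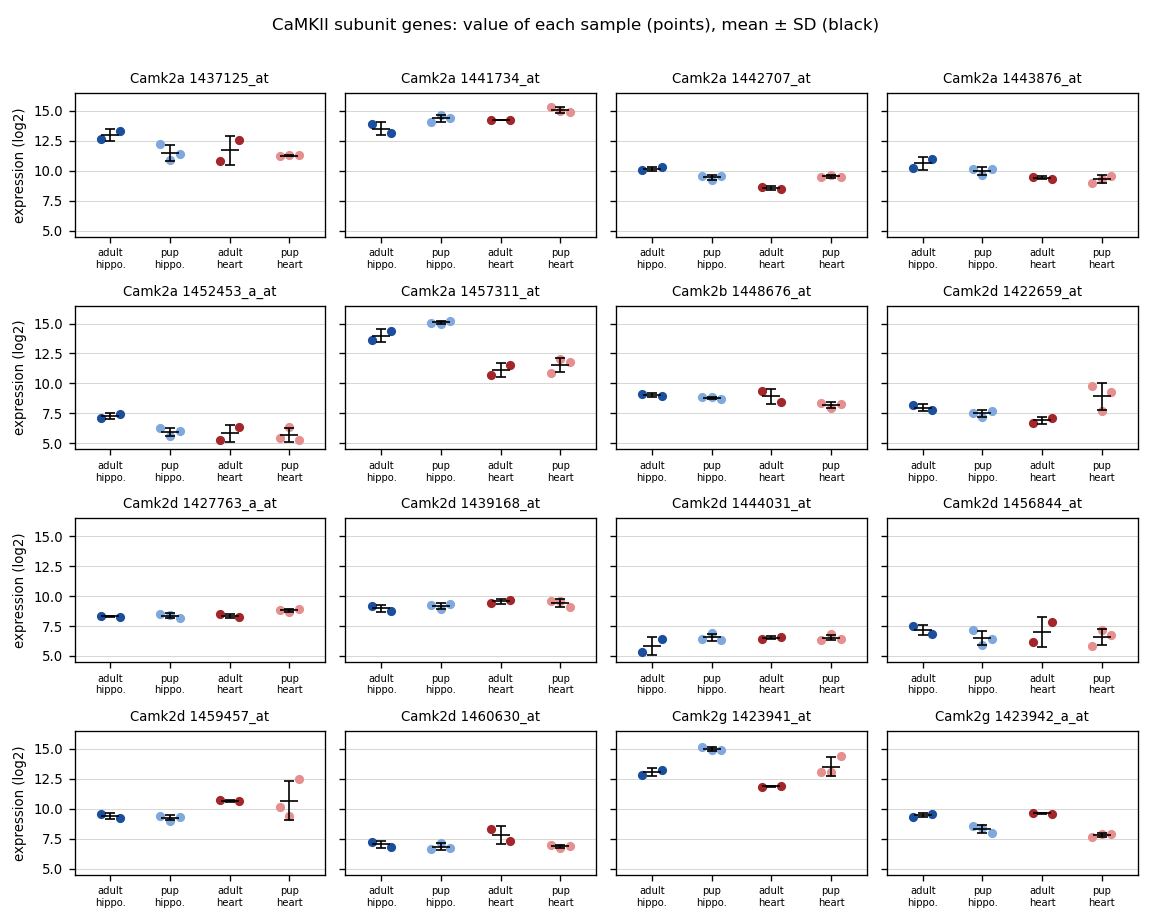
Log2 expression of the 16 CaMKII subunit probe sets in each biological sample (points), by group from adult hippocampus to pup heart, with the group mean and SD in black; adult points are means of 2 technical arrays. Camk2a 1457311_at separates both hippocampal groups (13.64 and above) from both heart groups (12.00 and below), while in the Camk2b panel and the 7 Camk2d panels hippocampal and heart samples overlap.

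Camk2d encodes the delta subunit, the main CaMKII subunit of heart muscle. Of its 7 probe sets, none passed the test between the tissues in either age. The tissue differences ran from -1.24 to 1.06 in adults and from -1.43 to 0.01 in pups. The probe set 1422659_at passed the test between ages in heart. It read 8.21 and 7.77 in adult hippocampus and 7.55, 7.19 and 7.73 in pup hippocampus, against 6.71 and 7.15 in adult heart and 9.82, 7.68 and 9.25 in pup heart. The adult hearts lay below all pup hearts, of which replicate 2 was more than 1 below the others. The adult minus pup difference in heart was -1.99 ± 0.53 (adjusted p = 0.0268), and in hippocampus it was 0.50 ± 0.53 (adjusted p = 0.565). The difference between the age differences, 2.49 ± 0.75, missed the threshold (adjusted p = 0.0993) and was 3.11 without pup heart replicate 2 (adjusted p = 0.0117).
The heart call was lost without adult heart replicate 1 (adjusted p = 0.166), adult heart replicate 2 (0.0884), pup heart replicate 1 (0.0604) or pup heart replicate 3 (0.0667), when only the heart samples were fitted (0.0927) and with pup hippocampus replicate 3 alone (0.0583). Without pup heart replicate 2, the same probe set was lower in hippocampus than in heart of pups (difference -2.04, adjusted p = 0.00232). With all samples that difference was -1.43 and was not called (adjusted p = 0.0766). In adults the hippocampus read 1.06 higher in both fits, which was not called with all samples (adjusted p = 0.225) and was called without pup heart replicate 2 (0.0443). That sample entered the adult difference only through the shared estimate of the spread.

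Among the other Camk2d probe sets, 1459457_at had the widest spread. Its values were 9.60 and 9.26 in adult hippocampus and 9.43, 9.02 and 9.33 in pup hippocampus, against 10.72 and 10.61 in adult heart and 10.13, 9.39 and 12.52 in pup heart. Pup heart replicate 3 stood far above the other samples. The tissue difference, -1.24 ± 0.78 in adults and -1.42 ± 0.64 in pups, missed the threshold at both ages, and that in adults passed it without pup heart replicate 3 (adjusted p = 0.0185), which entered only through the shared estimate of the spread. The probe set 1460630_at read 7.24 and 6.81 in adult hippocampus and 6.63, 7.17 and 6.72 in pup hippocampus, against 8.31 and 7.27 in adult heart and 7.01, 6.75 and 6.87 in pup heart. Adult heart exceeded pup heart by 0.91 (adjusted p = 0.0838), or by 1.43 without adult heart replicate 2 (adjusted p = 0.0397). The 4 remaining probe sets, 1427763_a_at, 1439168_at, 1444031_at and 1456844_at, gave age differences between -0.70 and 0.67 and tissue differences between -0.67 and 0.16, with overlapping groups in most pairs.

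Camk2g encodes the gamma subunit, which is made in many tissues. Its 2 probe sets changed with age in opposite directions, in both tissues. The probe set 1423941_at read 12.80 and 13.27 in adult hippocampus and 15.17, 14.94 and 14.87 in pup hippocampus, against 11.85 and 11.91 in adult heart and 13.10, 13.03 and 14.41 in pup heart. The probe set 1423942_a_at, whose suffix marks probes shared by several transcripts of 1 gene, read 9.33 and 9.56 in adult hippocampus and 8.57, 8.40 and 7.97 in pup hippocampus, against 9.63 and 9.59 in adult heart and 7.64, 7.91 and 7.89 in pup heart. In neither tissue did adults and pups overlap for either probe set.

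For Camk2g 1423941_at the adult minus pup difference was -1.96 ± 0.40 in hippocampus and -1.64 ± 0.40 in heart (adjusted p = 0.0124 and 0.0184). For 1423942_a_at it was 1.13 ± 0.25 in hippocampus and 1.80 ± 0.25 in heart (adjusted p = 0.0171 and 0.00173). The age differences of the 2 tissues were not called different for either probe set (-0.32, 95% confidence interval -1.58 to 0.94, and -0.66, -1.46 to 0.13). Between tissues, 1423941_at was higher in hippocampus than in heart of pups by 1.48 ± 0.36 (adjusted p = 0.0205), and by 1.16 ± 0.43 in adults, where it missed the threshold (adjusted p = 0.0853) but passed it without pup heart replicate 3 (0.0102). That sample entered the adult difference only through the shared estimate of the spread.
The heart call for 1423942_a_at held in every limma setting that tested it. A filter on probe sets with a mean below 8.87 and a setting with 1 probe set per gene left it out. The hippocampal call for 1423941_at was lost without adult hippocampus replicate 1 (adjusted p = 0.107) and with pup hippocampus replicate 3 alone (0.13), and its heart call without adult heart replicate 1 (0.108) or 2 (0.0901) and with only the heart samples (0.0756). The hippocampal call for 1423942_a_at was lost without adult hippocampus replicate 1 (0.0808) or 2 (0.119), without pup hippocampus replicate 3 (0.0526) and with replicate 3 alone (0.0612). The call between pup tissues was lost without pup hippocampus replicate 1 (0.0730) or 2 (0.0584), without pup heart replicate 1 (0.0693) or 2 (0.0660), with only the pup samples (0.0601) and with pup hippocampus replicate 3 alone (0.262).

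All 3 probe sets of the inhibitor genes were higher in hippocampus than in heart at both ages. Camk2n1, which encodes the alpha inhibitor, was read by 1456609_at at 14.32 and 14.96 in adult hippocampus and 15.02, 14.00 and 14.14 in pup hippocampus, against 10.57 and 11.04 in adult heart and 10.80, 11.61 and 11.86 in pup heart. Its second probe set, 1440455_at, read 10.19 and 10.22 in adult hippocampus and 9.54, 9.75 and 10.32 in pup hippocampus, against 8.24 and 8.16 in adult heart and 8.89, 8.59 and 8.59 in pup heart. For both, every hippocampus lay above every heart. The tissue difference of 1456609_at was 3.84 ± 0.46 in adults, or 14.3-fold, and 2.96 ± 0.37 in pups, or 7.80-fold (adjusted p = 0.0006 and 0.000534). That of 1440455_at was 2.01 ± 0.30 in adults and 1.18 ± 0.24 in pups (adjusted p = 0.00173 and 0.00972). All 4 calls held in every limma setting that tested them, and the setting with 1 probe set per gene left out 1440455_at.

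With age, neither Camk2n1 probe set passed the test. In hippocampus the adult minus pup differences were 0.25 (95% confidence interval -0.68 to 1.19) for 1456609_at and 0.34 (-0.27 to 0.94) for 1440455_at, with overlapping groups. In heart they were -0.62 (-1.55 to 0.31) and -0.49 (-1.10 to 0.12).

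Camk2n2, which encodes the beta inhibitor, had the largest tissue difference of the 28 probe sets in adults and the second-largest in pups. The probe set 1429204_at read 11.22 and 11.60 in adult hippocampus and 13.04, 12.78 and 12.54 in pup hippocampus, against 7.44 and 7.57 in adult heart and 8.20, 8.11 and 7.36 in pup heart. Pup hippocampus was the highest group, adult hippocampus lay between, and the 2 heart groups overlapped at the bottom. The tissue difference was 3.91 ± 0.34 in adults, or 15.0-fold, and 4.89 ± 0.27 in pups, or 29.8-fold (adjusted p = 0.000153 and 3.75e-06), and both held in every limma setting tried. In hippocampus the adults were lower than the pups (difference -1.37 ± 0.31, adjusted p = 0.0179), and in heart the difference was -0.38 ± 0.31 (adjusted p = 0.419).
The hippocampal age call was lost without adult hippocampus replicate 1 (adjusted p = 0.140) or 2 (0.0628), without pup hippocampus replicate 1 (0.0518) and with pup hippocampus replicate 3 alone (difference -1.12, 0.188). The age differences of the 2 tissues were not called different (-0.99 ± 0.43, adjusted p = 0.233).

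**Figure D4:**
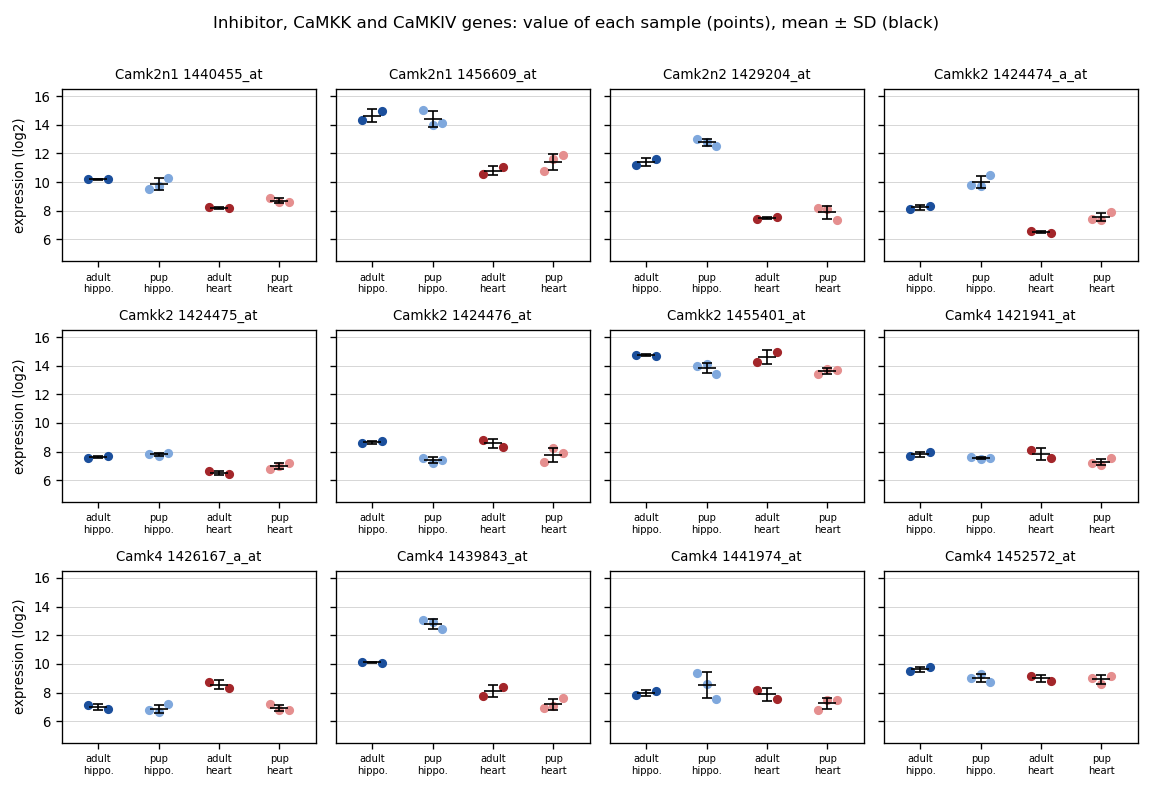
Log2 expression of the 12 probe sets of Camk2n1, Camk2n2, Camkk2 and Camk4 in each biological sample (points), by group from adult hippocampus to pup heart, with the group mean and SD in black; adult points are means of 2 technical arrays. Both Camk2n1 probe sets and the Camk2n2 probe set lie higher in all hippocampi than in all hearts, and Camk4 1439843_at runs from 12.42 to 13.08 in pup hippocampus.

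Camkk2 encodes CaM kinase kinase beta, which activates CaMKI, CaMKIV and the energy-sensing kinase AMPK. Its 4 probe sets fell into different patterns. The probe set 1424474_a_at read 8.11 and 8.37 in adult hippocampus and 9.79, 9.71 and 10.50 in pup hippocampus, against 6.56 and 6.46 in adult heart and 7.39, 7.38 and 7.89 in pup heart. The 4 groups did not overlap, and ran from adult heart through pup heart and adult hippocampus up to pup hippocampus. The tissue difference was 1.73 ± 0.33 in adults and 2.45 ± 0.27 in pups (adjusted p = 0.00562 and 0.000231). Both calls held in every limma setting that tested them, but the filter on low values and the setting with 1 probe set per gene left this probe set out. With age the probe set was lower in adults than in pups in both tissues (differences -1.76 ± 0.30 in hippocampus and -1.05 ± 0.30 in heart, adjusted p = 0.00617 and 0.0365).
The hippocampal age call was lost only without adult hippocampus replicate 1 (adjusted p = 0.0662). The heart call was lost in 6 of the 10 settings that left out 1 sample: without either adult hippocampus (0.0536 each), either adult heart (0.141 and 0.164), pup heart replicate 1 (0.0517) or pup heart replicate 3 (0.0803), and with only the heart samples (0.0772).

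The probe set Camkk2 1424475_at read 7.56 and 7.67 in adult hippocampus and 7.83, 7.68 and 7.90 in pup hippocampus, against 6.63 and 6.43 in adult heart and 6.76, 7.02 and 7.21 in pup heart. Every hippocampus lay above every heart, by 1.09 ± 0.25 in adults and 0.81 ± 0.21 in pups (adjusted p = 0.0141 and 0.0281). The technical arrays of the 2 adult hearts lay 1.12 and 1.03 apart for this probe set, about as far as the tissues. The adult call was lost without either adult hippocampus (0.0591 and 0.0857) or either adult heart (0.0505 and 0.0894). The pup call was lost without any 1 of the pup hippocampi (adjusted p = 0.0853, 0.0611 and 0.0861), without pup heart replicate 1 (0.0804) or 2 (0.0533), with only the pup samples (0.0757), with the 4 adult arrays as replicates (0.122) and with pup hippocampus replicate 3 alone (0.203).

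The other Camkk2 probe sets were higher in adults and did not separate the tissues. The probe set 1424476_at read 8.59 and 8.71 in adult hippocampus and 7.59, 7.23 and 7.43 in pup hippocampus, against 8.81 and 8.35 in adult heart and 7.27, 8.23 and 7.88 in pup heart. The adult minus pup difference was 1.23 ± 0.31 in hippocampus (adjusted p = 0.0272) and 0.79 ± 0.31 in heart (adjusted p = 0.103), or 1.00 in heart without pup heart replicate 2 (0.0415). The probe set 1455401_at read 14.76 and 14.67 in adult hippocampus and 13.98, 14.09 and 13.44 in pup hippocampus, against 14.24 and 14.94 in adult heart and 13.39, 13.75 and 13.69 in pup heart. Adults lay above pups in both tissues, by 0.88 ± 0.30 in hippocampus (adjusted p = 0.0772) and by 0.98 ± 0.30 in heart (adjusted p = 0.0441).
The hippocampal call for 1424476_at was lost without adult hippocampus replicate 1 (0.124) or 2 (0.143), without pup hippocampus replicate 2 (0.0788) or 3 (0.0682) and with pup hippocampus replicate 3 alone (0.172). The heart call for 1455401_at was lost in 9 of the 10 settings that left out 1 sample, all except that without pup hippocampus replicate 3, with a difference of 0.63 without adult heart replicate 2 (adjusted p = 0.299) and adjusted p-values between 0.0508 and 0.101 in the other 8, with only the heart samples (0.111) and with pup hippocampus replicate 3 alone (0.0645). The 4 probe sets of this gene thus gave both called rises and called falls with age.

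Camk4 encodes CaMKIV, a largely nuclear kinase of neurons and T cells. The probe set 1439843_at read 10.13 and 10.09 in adult hippocampus and 13.08, 12.94 and 12.42 in pup hippocampus, against 7.78 and 8.39 in adult heart and 6.90, 7.03 and 7.59 in pup heart. No 2 groups overlapped, and the order was pup hippocampus, adult hippocampus, adult heart and pup heart. The tissue difference was 2.02 ± 0.35 in adults, or 4.07-fold, and 5.64 ± 0.28 in pups, or 49.9-fold (adjusted p = 0.00337 and 2.05e-06). The difference in pups was the largest among the 28 probe sets. In hippocampus the adults were lower than the pups (difference -2.71 ± 0.32, a 6.52-fold fall, adjusted p = 0.00132). In heart the adults read 0.91 ± 0.32 above the pups without passing the test (adjusted p = 0.0705), and passed it without pup heart replicate 3 (1.12, adjusted p = 0.0372). The difference between the age differences was -3.62 ± 0.45 (adjusted p = 0.00669). The tissue calls and the hippocampal age call held in every limma setting tried, and the difference between age differences held in all but the setting with pup hippocampus replicate 3 alone (-3.22, adjusted p = 0.0607).

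A different pattern was read by Camk4 1426167_a_at, at 7.11 and 6.84 in adult hippocampus and 6.75, 6.67 and 7.17 in pup hippocampus, against 8.76 and 8.32 in adult heart and 7.17, 6.77 and 6.81 in pup heart. Adult heart stood above the 3 other groups, which overlapped. The probe set was lower in hippocampus than in heart of adults (difference -1.56 ± 0.29, adjusted p = 0.00527) and higher in adult than in pup heart by 1.62 ± 0.27 (adjusted p = 0.00353). Both calls held in every limma setting that tested them, but the filter on low values and the setting with 1 probe set per gene left this probe set out. In pups the tissue difference was -0.06 (95% confidence interval -0.59 to 0.48), and the difference between age differences, -1.51 ± 0.38, missed the threshold (adjusted p = 0.0615).

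The 3 other Camk4 probe sets passed no test. The probe set 1441974_at read 7.85 and 8.14 in adult hippocampus and 9.39, 8.60 and 7.55 in pup hippocampus, against 8.17 and 7.56 in adult heart and 6.78, 7.47 and 7.48 in pup heart. The pup hippocampi were 1.84 apart. The pup tissue difference was 1.27 ± 0.43 (adjusted p = 0.083), or 1.75 without pup hippocampus replicate 3 (adjusted p = 0.0155). The probe sets 1421941_at and 1452572_at gave age differences between 0.08 and 0.60 and tissue differences between -0.01 and 0.62.

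Over all 5 contrasts, 16 of the 28 probe sets passed at least 1 test, from 7 genes, and 12 passed none. In the counts that follow, a setting was tried only on the probe sets it kept. The filter on low values kept 14 of the 28, and the setting with 1 probe set per gene kept 1 for each gene. Of the 34 calls, 17 held in every limma setting tried, and 18 if the setting with pup hippocampus replicate 3 alone is left aside. These 18 were 6 of Camk4, 4 of Camk2n1, 3 of Camk2a, 2 of Camkk2, 2 of Camk2n2 and 1 of Camk2g.

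The probe sets whose profile over the 10 samples was most like that of a member were taken from 5394 probe sets of single named genes with an SD of at least 1. For Camk2n2 1429204_at they were those of Meg3, a noncoding RNA (Pearson's r = 0.996), Rtn1 (0.996), a reticulon, and Nefm (0.995), the medium neurofilament subunit. For Camk4 1439843_at they were Ncam1 (0.991), a neural cell adhesion molecule, Mapt (0.990), which encodes tau, and Cadm1 (0.990), a cell adhesion molecule. For Camk2n1 1456609_at they were Clip3 (0.990), Shroom2 (0.983) and Cd47 (0.983), and for Camk2a 1457311_at Dcaf12l1 (0.993), Olfm1 (0.989) and Gabarapl1 (0.986). For Camkk2 1424474_a_at they were B4galt6 (0.993), Fdft1 (0.993) and Rnf187 (0.990), and for Camk2g 1423941_at Fnbp1l (0.990), Ctbp1 (0.989) and Brd2 (0.985). The probe sets of Camk2d and Camk2b had nearest neighbours of lower r. They were Perm1 (0.966), a muscle regulator of mitochondrial genes, Akr1c6 (0.935) and Tlcd4 (0.931) for Camk2d 1459457_at, and Cacnb4 (0.886), Rasd2 (0.876) and Asrgl1 (0.861) for Camk2b 1448676_at. These coefficients describe 10 samples in 4 groups, so that a shared tissue or age difference alone gives a high r.

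The genes of calmodulin-like and calmodulin-binding proteins were represented by 15 probe sets of 6 genes. Of the 15, 4 were higher and 1 lower in hippocampus than in heart of adults, and 9 were higher and 0 lower in pups, with medians of 0.01 and 1.55. Over all probe sets, 10.3% were higher and 11.9% lower in adults, and 7.52% higher and 6.77% lower in pups. Pcp4, a small calmodulin-binding protein of neurons, was higher in hippocampus by 4.44 ± 0.50 in adults and 5.32 ± 0.41 in pups. Gap43, the growth cone protein that holds calmodulin at the membrane, was higher by 2.12 ± 0.35 in adults and 4.03 ± 0.29 in pups, and lower in adult than in pup hippocampus (difference -2.44 ± 0.32, adjusted p = 0.00219). In hippocampus 0 of the 15 were higher in adults and 7 lower (8.38% and 6.52% of all probe sets), and in heart 1 was higher and 4 lower (11.7% and 8.32% of all). Marcksl1, a membrane-bound calmodulin-binding protein, was higher in hippocampus than in heart of pups by 1.82 ± 0.21 and higher in adult than in pup heart by 1.26 ± 0.23 (adjusted p = 0.0057), and its probe set 1415922_s_at may share sequence with other genes.

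Calcineurin, the calmodulin-dependent phosphatase, and its regulators had 19 probe sets of 8 genes. Of these, 6 were higher and 4 lower in hippocampus than in heart of adults (10.3% and 11.9% of all probe sets), and 4 were higher and 2 lower in pups (7.52% and 6.77% of all). Ppp3cb, a catalytic subunit, was higher in hippocampus by 2.45 ± 0.47 in adults and 2.91 ± 0.38 in pups, and Ppp3r1, the regulatory subunit, by 1.68 ± 0.37 and 2.80 ± 0.30. Ppp3cc, another catalytic subunit, was lower at both ages (differences -1.20 ± 0.27 in adults and -0.76 ± 0.22 in pups), and the inhibitor Rcan2 was lower in pups (-1.59 ± 0.30). With age, 0 of the 19 were higher and 1 lower in hippocampus (8.38% and 6.52% of all), and 2 were higher and 2 lower in heart (11.7% and 8.32% of all), where Rcan2 was lower in adults (-1.10 ± 0.34).
The CaM kinase phosphatases were read by 3 probe sets of Ppm1e and Ppm1f. In adults 0 of the 3 differed between tissues, and in pups 1 was higher in hippocampus, that of Ppm1e (1.97 ± 0.27, adjusted p = 0.00101). Ppm1e was lower in adult than in pup hippocampus (difference -1.04 ± 0.31) and higher in adult than in pup heart by 1.36 ± 0.31, and Ppm1f was lower in adult heart (-0.99 ± 0.30).

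Other calmodulin-regulated kinases had 36 probe sets of 15 genes. In adults 3 were higher and 3 lower in hippocampus than in heart (10.3% and 11.9% of all probe sets), and in pups 8 were higher and 1 lower (7.52% and 6.77% of all). In pups Pnck, a brain CaMKI isoform, was higher in hippocampus by 3.87 ± 0.26, Camk1g, another CaMKI, by 1.61 ± 0.32 and Camkv, a kinase-like protein of neurons without catalytic activity, by 1.50 ± 0.40, while Mylk3, the cardiac myosin light chain kinase, was lower (difference -4.21 ± 0.36). In adults Pnck was higher by 1.44 ± 0.32, and Phkg2, a catalytic subunit of phosphorylase kinase, and Camk1g were lower, with differences of -2.98 ± 0.29 and -2.20 ± 0.39. With age 0 of the 36 were higher and 6 lower in hippocampus (8.38% and 6.52% of all), among them Pnck (-1.91 ± 0.29), Mylk (-1.77 ± 0.41), Camk1g (-1.49 ± 0.36) and Camk1 (-0.80 ± 0.22). In heart 3 were higher and 3 lower in adults (11.7% and 8.32% of all): the largest were Mylk3 (-2.95 ± 0.40), Camk1g (2.32 ± 0.36), Phkg2 (1.64 ± 0.27) and Camk1 (-1.15 ± 0.22).

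Among substrates and anchors of CaMKII in neurons, 29 probe sets of 9 genes were measured. In adults 7 were higher and 2 lower in hippocampus than in heart (10.3% and 11.9% of all probe sets), and in pups 10 were higher and 1 lower (7.52% and 6.77% of all). Gria1, an AMPA receptor subunit, was higher in hippocampus by 4.05 ± 0.37 in adults and 5.02 ± 0.30 in pups. Syn1, a synaptic vesicle protein, was higher by 4.01 ± 0.44 in pups and Kalrn, a guanine nucleotide exchange factor of dendritic spines, by 2.19 ± 0.48. Actn2, an actin crosslinker of spines and of the cardiac Z-disc, was lower in hippocampus at both ages (differences -3.35 ± 0.28 in adults and -3.79 ± 0.23 in pups). With age, 2 were higher and 1 lower in hippocampus (8.38% and 6.52% of all), and 4 were higher and 3 lower in heart (11.7% and 8.32% of all), where Syn1 was higher in adults by 2.40 ± 0.49 and Grin2b and Actn2 lower (-1.76 ± 0.33 and -1.21 ± 0.25). Syn1 also stood on the list of neuronal markers.

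Cardiac CaMKII substrates had 33 probe sets of 10 genes, of which 4 were higher and 6 lower in hippocampus than in heart of adults (10.3% and 11.9% of all probe sets), and 1 was higher and 11 lower in pups (7.52% and 6.77% of all). Pln, the phospholamban that restrains the calcium pump, was lower in hippocampus at both ages (differences -3.41 ± 0.58 in adults and -4.48 ± 0.48 in pups). Atp2a2, the pump itself, was lower in adults (-2.01 ± 0.29), and Ryr2, the calcium release channel, was lower in pups (-3.79 ± 0.53). Cacnb2, a calcium channel subunit, was lower in pups (-1.42 ± 0.25). Mef2c, a transcription factor of muscle and neurons, was higher in hippocampus by 1.36 ± 0.39 in adults and 1.67 ± 0.32 in pups. With age, 0 were higher and 2 lower in hippocampus (8.38% and 6.52% of all), where Atp2a2 was lower in adults (-2.11 ± 0.27). Of the 7 cardiomyocyte markers, 2 were lower in adult hippocampus and 5 were not called, and a link to Atp2a2 was not tested. In heart 0 were higher and 6 lower (11.7% and 8.32% of all), among them Ryr2 (-2.16 ± 0.59) and Cacnb2 (-1.10 ± 0.28).

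Targets of CaMKK and CaMKIV, the AMPK subunits and the CREB group, had 34 probe sets of 11 genes. In adults 2 were higher and 11 lower in hippocampus than in heart (10.3% and 11.9% of all probe sets), and in pups 3 were higher and 5 lower (7.52% and 6.77% of all). Prkaa2, a catalytic AMPK subunit, was lower in hippocampus at both ages (differences -1.15 ± 0.31 in adults and -1.46 ± 0.25 in pups). In adults Crebbp, the CREB-binding coactivator, was higher in hippocampus by 1.42 ± 0.33, while Crtc1, another CREB coactivator, and Crem, a CREB relative, were lower (-1.08 ± 0.32 and -1.04 ± 0.25). With age 1 was higher and 1 lower in hippocampus (8.38% and 6.52% of all), and 6 were higher and 3 lower in heart (11.7% and 8.32% of all), where Crtc1 was higher in adults by 1.73 ± 0.29 and Crebbp lower (-1.27 ± 0.30).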

How the data were processed

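RNA of hippocampus and heart of C57BL/6 mice was hybridized to 14 Affymetrix mouse expression arrays. The deposited values are log2 expression values that the authors computed with RMA 2.0, summarising probes by an upper-decile statistic according to their methods; the centring and range scaling the methods describe is not visible in the deposited values, and it was tried as an alternative. The file holds 45101 probe sets; 64 array controls were left out and 45037 tested. Gene names came from the platform annotation: 34958 probe sets name 1 gene, 932 several and 9211 none here, and symbols of the 8 genes measured were unchanged in RefSeq. With so few arrays per group, precision is set by their number.

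The 2 technical arrays of each adult sample were averaged, giving 10 samples. Group means were fitted with limma 3.58.1 (lmFit and eBayes) in R 4.3.3, with 6 residual and 3.73 prior degrees of freedom, and the 5 contrasts were tested two-sided with Benjamini-Hochberg adjustment over all 45037 probe sets at 0.05. No filter was set on low values. The p-values measure the spread between these samples. On simulated data for the contrast of ages in hippocampus, 200 of 45037 probe sets were changed. Of these, 63 of 66 changes of 4 and 32 of 66 changes of 2 (log2) were recovered, with 2 false calls. Changes of 1 were also simulated, and their recovery is not given here. In the data 6709 probe sets were called in this contrast, far more than were changed, so recovery and false calls there can differ. The alternatives were 2 other scalings, adult arrays as 4 replicates, 1 probe set per gene, a filter at the median mean (8.87), fits of only the groups compared, an intensity trend with robust prior, a replicate block, the t-test that the methods name, and leaving out each sample. The setting with pup hippocampus replicate 3 alone was added after the data were seen.

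The genes, related lists and marker lists were chosen with earlier results of these data known. Every probe set naming only 1 of the genes is described. Of each related list, up to 4 called genes per contrast are named by the size of the difference, each through its probe set with the highest mean. Likeness was computed for the probe set of each gene with the largest SD over samples. Figures were drawn with matplotlib 3.10.9.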

Additional observations from a re-analysis of the deposited data

Results flagged for a closer look

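The age difference (adult minus pup) of 2 CaM kinase probe sets differed between hippocampus and heart by the limma test of the difference itself (hippocampus minus heart, adjusted p under 0.05). It differed by 1.69 for Camk2a 1442707_at (adjusted p = 0.0271) and by -3.62 for Camk4 1439843_at (adjusted p = 0.00669). The same test was past the threshold for 7 related genes that the text names. It gave -1.81 for Marcksl1 (adjusted p = 0.0208), 4.03 for Mylk3 (0.00923), -3.81 for Camk1g (0.00783) and -2.47 for Phkg2 (0.0114). It gave -2.44 for Pnck (adjusted p = 0.0172), -2.40 for Ppm1e (0.0199) and -3.81 for Syn1 (0.0207). The contrast is higher for 1.18% of all probe sets and lower for 2.37%. The call for Camk2a 1442707_at was lost in 6 of the 10 settings that left out 1 sample. Groups of 2 or 3 samples are too small for the gap test of a single outlying value, which was not run.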

How the results depend on the processing

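No called value of the 28 CaM kinase probe sets changed sign in any alternative, and all 34 calls held under quantile normalization and under median centring and range scaling. Of the 106 uncalled values, 20 were called in at least 1 alternative, 17 of them with the 4 adult arrays of a tissue as replicates. The methods' t-test kept 5 of the 34 calls.

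Counts are given in the order age in hippocampus, age in heart, tissue in pups, tissue in adults and difference of age differences, for all probe sets and then for the CaM kinase probe sets. They were 6709, 9011, 6437, 9988 and 1600, and 6, 7, 8, 11 and 2, as reported. With adult arrays as 4 replicates, the counts that moved by over 1.5 times were 10275 for age in hippocampus, 16819 for tissue in adults and 4543 for the difference, with 12 members for age in hippocampus and 4 for the difference. With 1 probe set per gene, which tests fewer probe sets, they were 2947, 3767, 2902, 3571 and 672, and 3, 2, 4, 3 and 1. With a filter on low values, which also tests fewer, they were 5411 for age in heart, 3821 for tissue in pups, 4546 for tissue in adults and 779 for the difference, with 3 members for age in hippocampus, 3 for age in heart and 7 for tissue in adults. With only the heart samples, age in heart gave 4557 and 2. The methods' t-test, which cannot give the difference of age differences, called 1887, 1, 1938 and 1 after adjustment at 0.05, with 1, 0, 4 and 0 members, and 0 for all 4 contrasts at its own threshold of 0.001, also 0 members; at an unadjusted p under 0.05 it counted 13384, 10025, 9681 and 14007, with 10, 8, 11 and 11 members. With pup hippocampus replicate 3 alone, chosen after seeing the data, the counts that moved were 1228 for age in hippocampus, 2176 for tissue in pups and 133 for the difference, with 2 members for age in hippocampus and 0 for the difference. Beyond the settings that test fewer probe sets or samples, the cause of these shifts was not tested.

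Leaving out 1 sample gave 1330 to 8763 probe sets and 1 to 7 members for age in hippocampus, 3303 to 10260 and 2 to 7 for age in heart, 4336 to 8547 and 6 to 8 for tissue in pups, 4564 to 11866 and 8 to 13 for tissue in adults, and 209 to 2490 and 1 to 3 for the difference. An adult group then holds 1 sample, which is assumed to vary like the other groups.

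Replicate numbers are shared by the groups, but the labels do not say that same-numbered samples come from 1 animal, so the numbers were not taken to pair samples. In pups, deviations of same-numbered samples from their group means correlated at 0.20, -0.08 and 0.01. Those of other pup pairs ran from -0.16 to 0.16. In adults, the 2 samples of a group deviate by opposite amounts, so r could only be -0.05 or 0.05. These correlations cannot decide whether samples are paired. A fit with the number as a block gave 245 probe sets and 1 member for the difference of age differences, and 6, 7, 7 and 9 members in the other contrasts. It kept 30 of the 34 calls. Those lost were Camkk2 1424475_at in pups (adjusted p = 0.0694), Camk2a 1443876_at and 1452453_a_at in adults (0.0598 and 0.0767), and the difference of age differences of Camk2a 1442707_at (0.0972).

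Precision is limited by groups of 2 or 3 samples, and by technical arrays that lay over 1 apart for 4 of the 28 probe sets. Why probe sets of 1 gene differ in direction was not tested.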
